A study of Mus musculus with 23 samples.

Results

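The oogenesin family of the mouse, Oog1, Oog2, Oog3 and Oog4, was followed across oocytes and early embryos with and without maternal Cxxc1. Its members were the rows of the deposited expression table that carry these 4 symbols, 4 of 24506 entries, and all 4 passed the filter on low values that left 13776 genes for testing. The first deletion group held germinal vesicle (GV) oocytes, fully grown oocytes arrested before meiotic maturation, from 3-week Cxxc1 fl/fl; Zp3-Cre females, set against GV oocytes of 3-week wild-type females. The second held GV oocytes from 3-month Cxxc1 fl/fl; Gdf9-Cre females, set against those of 3-month wild-type females. The remaining deletion groups held zygotes and 2-cell embryos of Cxxc1 fl/fl; Zp3-Cre females, set against those of wild-type females, and every embryo had a wild-type father. There were 23 libraries in 8 groups, with 2 for wild-type 2-cell embryos and 3 for each of the other groups. Zp3-Cre acts in growing oocytes and Gdf9-Cre already in oocytes of the early follicle stages, so the driver and the age of the female changed together between the GV models. For the embryos no female age is labelled, and no batch is named for any library. Whether replicates are separate animals or pools is not labelled either, so the p-values rest on the spread among these libraries, part of which may be technical.

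Cxxc1 encodes CFP1, a subunit of the SETD1 complexes, which write trimethylation on lysine 4 of histone H3. Its CXXC zinc finger binds unmethylated CG dinucleotides. The oogenesins belong to the PRAME-like genes, a family encoding leucine-rich repeat proteins that has many copies in the mouse genome and is transcribed mainly in germ cells and early embryos. Oogenesin 1, the founding member, was first described as an oocyte and early embryo protein and has been reported to bind RalGDS, an exchange factor for the small GTPase Ral. A growing oocyte stores maternal RNA, stops transcribing when it is fully grown, degrades much of this RNA through maturation and fertilization, and leaves new transcription to the embryo, which in the mouse starts in the late zygote and spreads at the 2-cell stage.

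The promoters of the 4 genes are shown because CG dinucleotides are what the CXXC finger binds. They are the 250 bases before each annotated start in RefSeq (GRCm38.p6), written 5′ to 3′ in the direction of transcription with every CG in capitals. Oog1 lies at chr12:87602415-87602664 on the plus strand, Oog2 at chr4:144190467-144190716 on the plus strand, Oog3 at chr4:144162652-144162901 on the minus strand and Oog4 at chr4:143450325-143450574 on the minus strand.
Oog1: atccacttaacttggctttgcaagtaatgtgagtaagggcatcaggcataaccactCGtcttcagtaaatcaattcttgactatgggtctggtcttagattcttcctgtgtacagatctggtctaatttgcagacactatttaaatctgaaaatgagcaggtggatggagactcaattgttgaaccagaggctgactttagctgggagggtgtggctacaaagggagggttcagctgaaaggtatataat
Oog2: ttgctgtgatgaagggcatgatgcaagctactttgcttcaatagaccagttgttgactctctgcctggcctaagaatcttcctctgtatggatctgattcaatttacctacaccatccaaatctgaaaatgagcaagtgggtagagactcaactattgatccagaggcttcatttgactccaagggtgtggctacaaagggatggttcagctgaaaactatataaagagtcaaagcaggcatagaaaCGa
Oog3: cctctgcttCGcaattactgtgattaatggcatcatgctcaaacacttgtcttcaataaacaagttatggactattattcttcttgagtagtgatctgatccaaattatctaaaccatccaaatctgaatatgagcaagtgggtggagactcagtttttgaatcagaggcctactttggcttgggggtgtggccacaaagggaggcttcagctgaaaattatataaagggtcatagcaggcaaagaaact
Oog4: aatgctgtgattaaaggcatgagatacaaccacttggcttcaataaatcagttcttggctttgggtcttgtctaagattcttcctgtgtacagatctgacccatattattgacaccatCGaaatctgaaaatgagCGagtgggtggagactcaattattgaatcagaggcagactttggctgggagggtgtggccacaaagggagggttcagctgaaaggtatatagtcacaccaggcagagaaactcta

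The capitals show how few CG dinucleotides these windows hold. Oog1, Oog2 and Oog3 each had 1 and Oog4 had 2, against a median of 6 over the 32841 promoters of the same table, of which 18.8% had at most 1 and 29% at most 2. The GC content was 42.4% for Oog1, 42.8% for Oog2, 40.4% for Oog3 and 44% for Oog4, against a median of 52.4% over all promoters. The 4 windows resembled each other. Aligned in pairs over their whole length, they were identical at 63.9% (Oog1 and Oog2) to 76.9% (Oog2 and Oog4) of alignment columns. An E-box (CANNTG, the same on both strands), the kind of site that basic helix-loop-helix factors such as FIGLA bind, was found 3 times in Oog1, 4 times in Oog2, 3 times in Oog3 and 2 times in Oog4, and 66.2% of all promoters held at least 1. The element TAATTG, searched on both strands for the oocyte homeobox factor NOBOX, was found 1 time in Oog3 and 1 time in Oog4 and not in the windows of Oog1 and Oog2, while 7.17% of all promoters held it. The letters TATAAA stood 30 bases before the start of Oog2 and 29 bases before that of Oog3 and were found in 12.4% of all promoters (either strand). Oog2 and Oog3 are neighbouring protein-coding genes on chromosome 4. The stretch of that chromosome running between Oog4 and Oog2 holds 19 protein-coding genes in RefSeq, both ends included, of which 15 carry an Oog or Pramel symbol. Oog1 lies apart from them on chromosome 12. Related genes can share reads. The likeness of the transcripts was not measured here, and how the authors' quantification divided shared reads is not known. This makes the value of each member less certain.

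All values are FPKM, fragment counts corrected for transcript length and sequencing total, so levels can be set side by side between genes. A gene is said to have risen or fallen where its change on the log2(FPKM + 1) scale had a limma p, adjusted over all 13776 genes by the Benjamini-Hochberg method, under 0.05. Columns summed to between 295901 and 420415 FPKM. The table holds no read counts, so the counting error of a value is unknown. Cxxc1 itself was at 0.626 to 4.16 FPKM in the libraries labelled as deletion and at 9.94 to 41.5 FPKM in wild-type libraries, with no overlap. The 12 oocyte markers, Gdf9 and Zp3 among them, were above 0 in every group. The third 2-cell deletion library stood apart. Its log values correlated at 0.936 and 0.942 with the other libraries of its group, which correlated at 0.983 with each other. It also had 12333 genes at 1 FPKM or more, against 10481 and 10187 in those libraries, and a summed level of the 18 granulosa cell markers of 157 FPKM, against 26.6 and 23.2 FPKM. Blood and stroma markers summed to 116 FPKM in it, against 16.6 and 19.2 FPKM, and oviduct markers to 32.1 FPKM, against 5.999 and 5.39 FPKM. Its Cxxc1 was at 4.16 FPKM, against 1.17 and 0.626 FPKM. Another scaling of the libraries (median of ratios) moved the median change of all genes by −0.08 and −0.17 log2 in the 3-week and 3-month GV comparisons, by −0.25 in zygotes and by −0.19 in 2-cell embryos. Members moved by more than these medians in each of these 4 comparisons, and their rescaled values stand beside the results they touch.

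By group mean Oog3 was the most abundant member in 1 of 4 deletion groups and in all 4 wild-type groups. In 3-week GV oocytes Oog1 led in deletion oocytes with 149.9 ± 8.92 FPKM, followed by Oog4 with 139 ± 11.5, Oog3 with 109 ± 12.5 and Oog2 with 51.4 ± 2.33 (SD, n = 3), and only Oog1 and Oog4 overlapped. In wild-type 3-week oocytes Oog3 led with 373 ± 12.5 FPKM, followed by Oog1 with 214 ± 17.1 and Oog4 with 206 ± 5.37, which overlapped, and Oog2 with 76.0 ± 2.47 (SD, n = 3). In 3-month GV oocytes Oog3 (130 ± 3.54 FPKM), Oog4 (127 ± 8.34) and Oog1 (121 ± 18.2) overlapped in deletion oocytes above Oog2 (51.8 ± 1.66), whereas Oog3 stood alone at 439.6 ± 5.79 FPKM in wild-type oocytes (SD, n = 3). In zygotes Oog1 (187 ± 24.4 FPKM) and Oog3 (159 ± 13.8) overlapped after deletion, above Oog4 (91.2 ± 16.8) and Oog2 (31.1 ± 3.46), and in wild type Oog3 (910.4 ± 67.4 FPKM), Oog1 (187 ± 18.5), Oog4 (111 ± 8.18) and Oog2 (28.2 ± 3.32) stood apart from each other (SD, n = 3). In 2-cell embryos the order after deletion was Oog1, Oog3, Oog4 and Oog2, with the ranges of Oog1 and Oog3 meeting at 145 FPKM, and in wild type it was Oog3, Oog1, Oog2 and Oog4, without overlap between neighbours. Among all 24506 entries of the table ranked by mean FPKM, Oog3 was at place 755 in deletion and 105 in wild-type 3-week oocytes, at 627 and 84 in 3-month oocytes, at 397 and 39 in zygotes, and at 501 and 71 in 2-cell embryos.

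**Figure D1:**
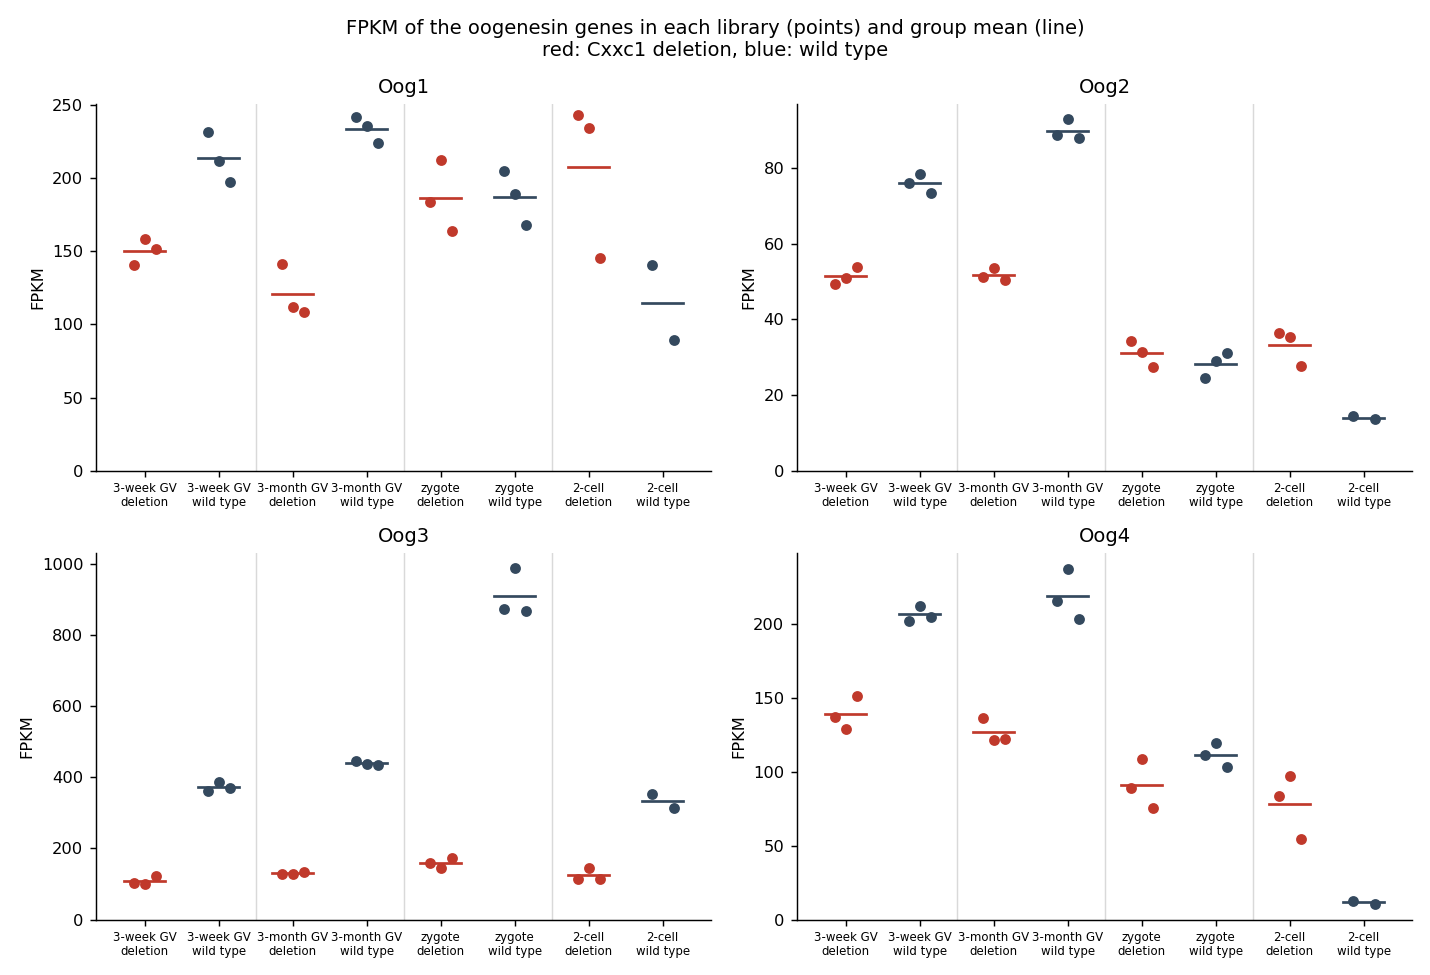
Oog1, Oog2, Oog3 and Oog4 in each of the 23 libraries. The vertical axis is FPKM, each point is a library and each horizontal bar is the mean of a group; Oog3 sits lower in the deletion libraries at every stage, while Oog4 sits higher in 2-cell embryos of deletion females (54.5 to 97.2 FPKM) than in those of wild-type females (10.6 and 12.5 FPKM).

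Summed over the 4 members, the family made up 449.6 ± 26.8 FPKM in deletion and 869 ± 22.5 FPKM in wild-type 3-week GV oocytes, and 429 ± 24.6 FPKM in deletion and 982 ± 27.7 FPKM in wild-type 3-month GV oocytes (SD, n = 3 each). In zygotes the sum was 468 ± 29.1 FPKM after maternal deletion and 1237 ± 79.8 FPKM in wild type (SD, n = 3 each). In 2-cell embryos the sums overlapped, at 343 to 512 FPKM in 3 deletion libraries and 428 and 519 FPKM in 2 wild-type libraries. By group mean the sum lay between 429 and 468 FPKM in the deletion groups, whose 2-cell libraries ran from 343 to 512 FPKM. In wild type it was 869 FPKM in 3-week and 982 FPKM in 3-month GV oocytes, 1237 FPKM in zygotes and 474 FPKM in 2-cell embryos. The sums were not rescaled, so their course over the stages holds for this scaling only. From deletion 3-week GV oocytes to deletion zygotes, median-of-ratios scaling moved the change of Oog3 from 0.54 to 0.95 and that of Oog4 from −0.62 to −0.21. The makeup differed also where the sums overlapped. Averaged over libraries, Oog3 supplied 28.6% of the family's FPKM in deletion 2-cell embryos and 70.6% in wild-type ones, Oog1 46.4% and 23.9%, and Oog4 17.5% and 2.45%. In zygotes the share of Oog3 was 34.2% after deletion and 73.6% in wild type.

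**Figure D2:**
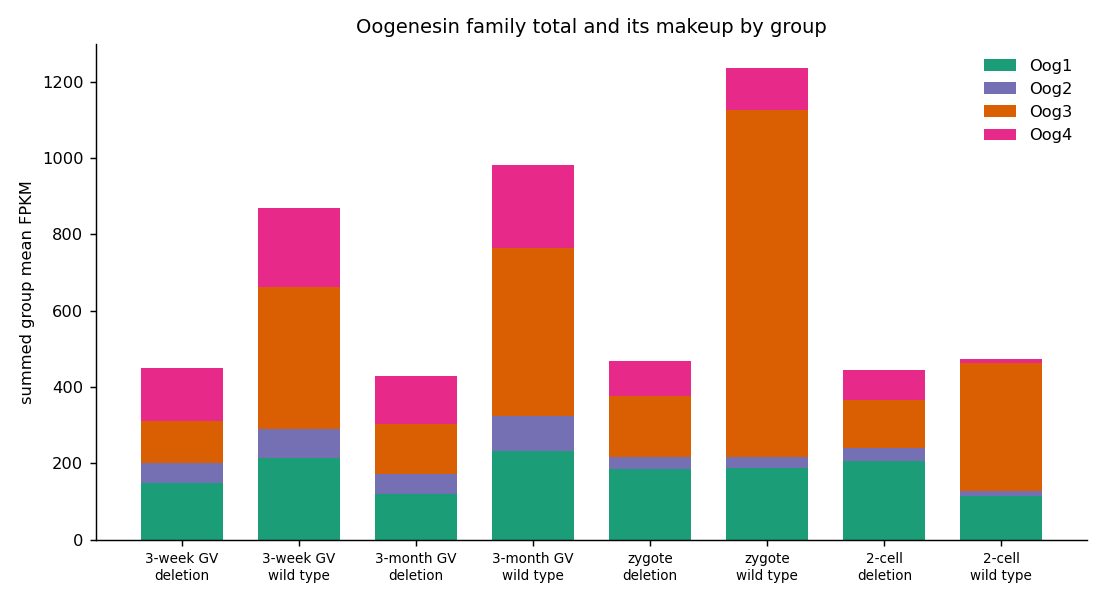
Sum of the 4 oogenesin genes by group and its makeup. Bars stack the group means in FPKM from 0, with the deletion group left of its wild type. The share of Oog3, averaged over the libraries of a group, was 24.2% to 34.2% in the deletion groups and 42.9% to 73.6% in the wild-type groups.

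The 3-week comparison asked what the loss of Cxxc1 in growing oocytes does to the family. All 4 members fell in GV oocytes of 3-week Zp3-Cre females, Oog3 by far the most. In this comparison 29.6% of all genes tested passed the threshold, 18.3% as higher and 11.3% as lower, and the median change of all genes was 0.09 on the log2 scale. Oog3 had 104, 100.2 and 123 FPKM in deletion oocytes, against 362, 387 and 369 FPKM in wild-type oocytes. The groups did not come near each other. The log2 change of Oog3 was −1.77 ± 0.0967 (SE, adjusted p = 3.35e-10), the 38th lowest of the 13776 genes. Oog1 had 140.4, 158 and 151 FPKM in deletion oocytes, against 232, 212 and 197 FPKM in wild-type oocytes. Its change was −0.51 ± 0.174 (adjusted p = 0.034), with no overlap, and passed the threshold in only 1 of the 6 fits that left out a library of these groups, with values of −0.56 to −0.45. Oog2 had 49.4, 50.9 and 54.0 FPKM in deletion oocytes, against 76.2, 78.3 and 73.4 FPKM in wild-type oocytes, a change of −0.55 ± 0.101 (adjusted p = 0.00039). Oog4 had 137, 129 and 151 FPKM in deletion oocytes, against 202, 212 and 205 FPKM in wild-type oocytes, a change of −0.57 ± 0.155 (adjusted p = 0.00918). Every deletion library was below every wild-type library for both genes. Of all genes that passed the threshold here, 61.8% were higher, against 45.4% after median-of-ratios scaling and 48.8% after quantile normalization. Median-of-ratios scaling gave changes of −0.62 for Oog1, −0.66 for Oog2, −1.88 for Oog3 and −0.68 for Oog4. If a library pools several oocytes, which is not labelled, less RNA of a gene in every oocyte and fewer oocytes that carry it cannot be told apart. Oocyte markers moved with the family. Of the 12, 1 was higher and 7 lower, and they summed to 8341 to 9302 FPKM in deletion libraries and 11181 to 11268 FPKM in wild-type libraries. The granulosa list, with 1 of 13 tested genes higher and 0 lower, summed to 63.7 to 76.8 FPKM in deletion libraries and 50.1 to 62.8 FPKM in wild-type libraries, with Ptx3 and Tnfaip6 listed at 0. Of 5 tested oviduct markers 2 were higher and 0 lower, and the 6 listed genes summed to 6.24 to 12.8 FPKM in deletion libraries and 1.30 to 2.49 FPKM in wild-type libraries, with Pax8 listed at 0 in wild type. Markers of the 2-cell embryo, 5 of 9 higher and 0 lower, summed to 17.8 to 24.6 FPKM and 3.44 to 4.18 FPKM in deletion and wild-type libraries. Of these, Zfp352 and Tdpoz3 were listed at 0 in both groups and Tdpoz4 in the deletion libraries. The part of these markers in the family's levels was not tested.

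In GV oocytes of 3-month Gdf9-Cre females the 4 members fell again, in a comparison in which 49.5% of all genes tested passed the threshold, 34.2% as higher and 15.2% as lower, and the median change of all genes was 0.20. Oog3 had 128, 128 and 134 FPKM in deletion oocytes, against 446, 437 and 435 FPKM in wild-type oocytes, a change of −1.75 ± 0.0967 (adjusted p = 1.52e-10). Oog1 had 142, 112 and 109 FPKM in deletion oocytes, against 241, 236 and 224 FPKM in wild-type oocytes, a change of −0.96 ± 0.174 (adjusted p = 0.000162). No library of either gene crossed into the other group. Oog2 had 51.4, 53.6 and 50.3 FPKM in deletion oocytes, against 88.7, 93.1 and 88.1 FPKM in wild-type oocytes, a change of −0.79 ± 0.101 (adjusted p = 3.89e-06). Oog4 had 136, 122 and 122 FPKM in deletion oocytes, against 216, 237 and 203 FPKM in wild-type oocytes, a change of −0.78 ± 0.155 (adjusted p = 0.000384). Oog2 and Oog4 were likewise without overlap. Of the genes past the threshold 69.2% were higher, against 48.3% and 47.2% after the other scalings. Median-of-ratios scaling gave changes of −1.20 for Oog1, −1.03 for Oog2, −1.99 for Oog3 and −1.03 for Oog4. Granulosa cell markers moved in this comparison as well. Of their 13 tested genes 8 were higher and 0 lower, and the 18 listed genes summed to 94.2 to 178 FPKM in deletion libraries and 39.4 to 42.0 FPKM in wild-type libraries, with Tnfaip6 listed at 0 in both groups and Ptx3 in the wild type. Oviduct markers summed to 27.3 to 43.2 FPKM in deletion libraries and 2.48 to 3.18 FPKM in wild-type libraries, with 2 of 5 tested genes higher and 0 lower and Pax8 listed at 0 in the deletion libraries. Those of the 2-cell embryo, 5 of 9 higher and 0 lower, summed to 36.7 to 48.3 FPKM and 4.22 to 4.52 FPKM in deletion and wild-type libraries. Among them Zfp352 and Tdpoz4 were listed at 0 in both groups, Tdpoz3 in the deletion libraries and Usp17lc and Usp17ld in the wild type. Oocyte markers, of which 2 were higher and 7 lower, summed to 8960 to 9242 FPKM in deletion libraries and 10411 to 10655 FPKM in wild-type libraries. The part of these markers in the lower oogenesin levels was not tested. The difference in deletion effect between the GV models did not pass the threshold for any of the 4 members, in a test that 4.89% of all genes passed, but did for Oog1 (adjusted p = 0.0448) and Oog2 (adjusted p = 0.0327) with only those groups in the fit. The effect in 3-month Gdf9-Cre oocytes minus that in 3-week Zp3-Cre oocytes was −0.45 ± 0.246 for Oog1 (adjusted p = 0.325), −0.23 ± 0.143 for Oog2 (adjusted p = 0.395), 0.02 ± 0.137 for Oog3 (adjusted p = 0.967) and −0.21 ± 0.220 for Oog4 (adjusted p = 0.651). Between wild-type GV oocytes of 3-month and 3-week females, where 3.95% of all genes passed the threshold, the changes were 0.13 for Oog1, 0.24 for Oog2, 0.24 for Oog3 and 0.08 for Oog4, with adjusted p from 0.20 to 0.902. With only the wild-type GV groups in the fit, Oog2 and Oog3 passed the threshold (adjusted p = 0.0135 and 0.00996).

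In zygotes the members parted. Oog3 had its largest change of the 4 deletion comparisons, and Oog1, Oog2 and Oog4 did not pass the threshold. Of all genes 46.7% passed it, 35.3% as higher and 11.4% as lower, and the median change was 0.22. Oog3 had 159, 145 and 173 FPKM in zygotes of deletion females, against 874, 988 and 869 FPKM in wild-type zygotes. The highest deletion zygote library thus stood far under the lowest wild-type one. The change of −2.51 ± 0.0967 (adjusted p = 7.07e-14) was the 6th lowest of the 13776 genes. Oog1 had 184, 212 and 164 FPKM after deletion, against 205, 189 and 168 FPKM in wild type, a change of −0.01 ± 0.174 (adjusted p = 0.984). Oog2 had 34.4, 31.4 and 27.5 FPKM after deletion, against 24.5, 28.9 and 31.0 FPKM in wild type, a change of 0.14 ± 0.101 (adjusted p = 0.287). Oog4 had 88.9, 109 and 75.6 FPKM after deletion, against 111, 120 and 103 FPKM in wild type, a change of −0.30 ± 0.155 (adjusted p = 0.126). The groups overlapped for these 3 genes. Their place relative to other genes depended on the scaling. After median-of-ratios scaling, with 41.1% of the genes past the threshold higher in place of 75.6% (46.1% after quantile normalization), the changes were −0.62 for Oog1, −0.45 for Oog2 and −0.90 for Oog4, all past the threshold. After quantile normalization Oog4 passed (−0.41), as it did without the second deletion library (−0.44). Oog3 fell under each scaling. Of the 12 oocyte markers 10 were higher and 1 lower, and they summed to 5492 to 6274 FPKM after deletion and 4119 to 4532 FPKM in wild type. Of 13 tested granulosa markers 3 were higher and 0 lower, and the 18 listed genes summed to 32.7 to 37.5 FPKM after deletion and 22.2 to 25.9 FPKM in wild type, with Foxl2, Hsd17b1 and Ptx3 listed at 0 in both groups and Amh in wild type. The part of these markers in the oogenesin levels was not tested.

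In 2-cell embryos 3 members rose and Oog3 fell. Here 66.5% of all genes passed the threshold, 37.1% higher and 29.4% lower, so a member past it is not unusual in itself; the median change was 0.16. Oog4 had 83.9, 97.2 and 54.5 FPKM in embryos of deletion females, against 12.5 and 10.6 FPKM in wild-type embryos. The lowest deletion library was well above both wild-type libraries. The change of Oog4 was 2.63 ± 0.174 (adjusted p = 1.03e-10), the 118th highest of the 13776 genes. Oog2 had 36.4, 35.3 and 27.7 FPKM after deletion, against 14.4 and 13.6 FPKM in wild type, a change of 1.18 ± 0.113 (adjusted p = 1.91e-08). Oog1 had 243, 234 and 145 FPKM after deletion, against 141 and 89.1 FPKM in wild type. Its groups all but met, with a change of 0.85 ± 0.194 (adjusted p = 0.000733). The change was 0.42 (adjusted p = 0.0383) after quantile normalization and 0.52 (adjusted p = 0.0473) without the second wild-type library, and the adjusted p was 0.0678 with only the 2-cell groups in the fit. Oog3 had 114, 145 and 115 FPKM after deletion, against 352 and 314 FPKM in wild type, a change of −1.42 ± 0.108 (adjusted p = 7.35e-10). The third deletion library, which stood apart, had the lowest Oog1, Oog2 and Oog4 of its group. Without it the changes were 1.09 for Oog1, 1.30 for Oog2, −1.37 for Oog3 and 2.87 for Oog4, all past the threshold. Stage markers moved too. The 12 oocyte markers were all higher, summing to 4770 to 5100 FPKM in deletion libraries and 1801 to 2119 FPKM in wild-type libraries. All 9 tested markers of the 2-cell embryo, such as Zscan4d and Zfp352, were lower, summing to 20.4 to 36.8 FPKM in deletion libraries and 198 to 257 FPKM in wild-type libraries. Their part in the oogenesin levels was not tested. Of the genes past the threshold 55.8% were higher, and 46% after median-of-ratios scaling. That scaling gave changes of 0.57 for Oog1, 0.92 for Oog2, −1.70 for Oog3 and 2.37 for Oog4, all past the threshold.

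**Figure D3:**
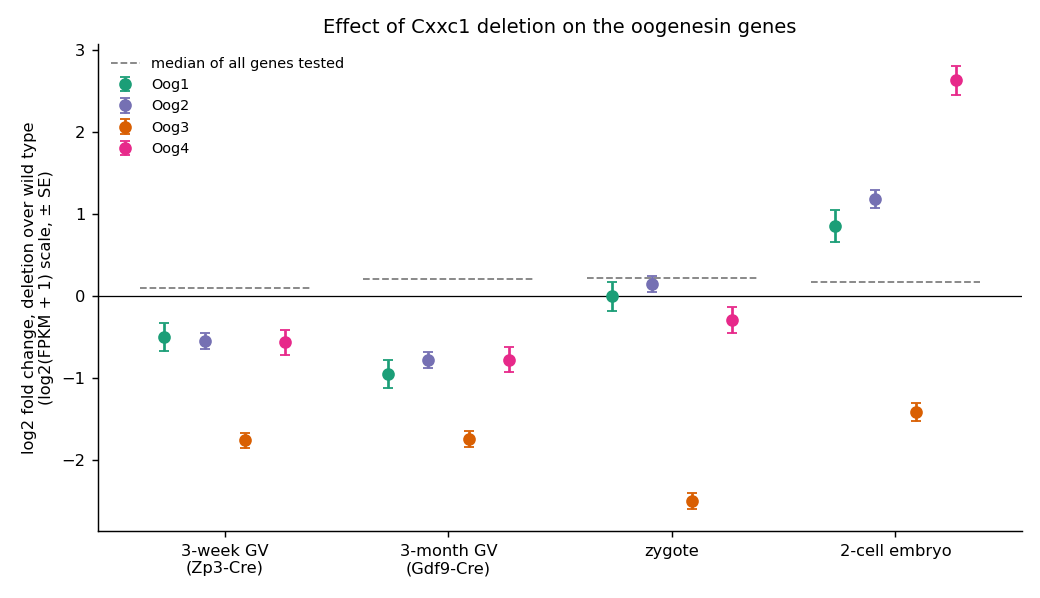
Effect of Cxxc1 deletion on each oogenesin gene. The vertical axis is the log2 fold change of deletion over wild type on the log2(FPKM + 1) scale with its standard error from the limma fit, and dashed lines mark the median of all genes tested; Oog3 lies between −2.51 and −1.42 in all 4 comparisons, while Oog4 runs from −0.78 in 3-month GV oocytes to 2.63 in 2-cell embryos.

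The course over the stages was followed in deletion and in wild-type cells. Deletion zygotes against deletion 3-week GV oocytes, with 64.9% of all genes past the threshold (21.9% higher, 43% lower), showed changes of 0.31 for Oog1 (adjusted p = 0.13, and 0.0437 with only these groups in the fit), −0.71 for Oog2 (adjusted p = 3.57e-06), 0.54 for Oog3 (adjusted p = 5.76e-05) and −0.62 for Oog4 (adjusted p = 0.00172). Deletion 2-cell embryos against deletion zygotes, with 50% of all genes past the threshold (32.7% higher, 17.3% lower), showed a fall of Oog3 by 0.36 (adjusted p = 0.00482) and changes of 0.12 for Oog1, 0.08 for Oog2 and −0.24 for Oog4 (adjusted p = 0.573, 0.506 and 0.213). With only these groups in the fit Oog3 did not pass the threshold (adjusted p = 0.0822). Without the second 2-cell deletion library Oog4 passed it, with a change of −0.41 (adjusted p = 0.0303). Over deletion GV oocytes of 3-week females, zygotes and 2-cell embryos Oog4 averaged 139, 91.2 and 78.5 FPKM, and Oog3 109, 159 and 125 FPKM.

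In wild type, zygotes differed from 3-week GV oocytes at 70.1% of all genes, 19.4% as higher and 50.7% as lower. Oog3 rose, by 1.28 ± 0.0967 (adjusted p = 2.61e-10), Oog2 fell by 1.41 and Oog4 by 0.89 on the log2 scale, and Oog1 changed by −0.19 (adjusted p = 0.35). Between wild-type 2-cell embryos and zygotes, where 68.5% of all genes passed the threshold, 44.5% as higher and 24% as lower, all 4 members fell, Oog1 not under every alternative. The change was −0.73 for Oog1, −0.95 for Oog2, −1.45 for Oog3 and −3.16 ± 0.174 for Oog4 (adjusted p = 2.99e-12), and that of Oog4 was the 66th lowest of all genes. Over GV oocytes of 3-week females, zygotes and 2-cell embryos Oog4 averaged 206, 111 and 11.6 FPKM in wild type, and Oog2 76.0, 28.2 and 14.0 FPKM. Median-of-ratios scaling moved the median change of all genes at the step to the zygote by 0.23 after deletion and by 0.42 in wild type, and quantile normalization moved it by −0.50 at the wild-type step to the 2-cell embryo. After median-of-ratios scaling the step to the zygote was 0.72 for Oog1 in both, past the threshold. Oog4 changed by −0.21 after deletion and 0.018 in wild type, without passing it. Oog2 changed by −0.31 after deletion and −0.52 in wild type, and Oog3 by 0.95 and 2.19, all past it. After quantile normalization the changes of Oog2 were −0.35 and −0.86, and that of Oog1 after deletion was 0.40, past the threshold. At the wild-type step to the 2-cell embryo, quantile normalization gave −0.32 for Oog1, without passing the threshold (adjusted p = 0.103), and −0.64 for Oog3, and median-of-ratios scaling gave −1.17 for Oog1. Without the second wild-type 2-cell library the change of Oog1 at that step was −0.41 (adjusted p = 0.114). After median-of-ratios scaling and quantile normalization, 48.2% and 55.3% of the calls of this step were higher after deletion, in place of 33.7%, and 48% and 52.2% in wild type, in place of 27.7%. For the step to the 2-cell embryo these shares were 58.9% and 48.7% after deletion, in place of 65.5%, and 54.2% and 44.3% in wild type, in place of 65%.

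The difference between stages in the deletion effect was tested directly. From the 3-week GV oocyte to the zygote the effect moved down for Oog3, by −0.74 ± 0.137 (adjusted p = 0.000318), and up for Oog2, by 0.69 ± 0.143 (adjusted p = 0.000911), in a test passed by 29.4% of all genes, 22.4% upward and 7.01% downward. The shift of Oog3 did not pass after quantile normalization (−0.28; −1.24 after median-of-ratios scaling) and that of Oog2 did not after median-of-ratios scaling (0.21). For Oog1 and Oog4 it moved by 0.50 and 0.27 (adjusted p = 0.147 and 0.417), and that of Oog1 passed with only these groups in the fit (adjusted p = 0.0245). From the zygote to the 2-cell embryo, in a test passed by 53.9% of all genes (21.5% upward, 32.4% downward), it moved up for all 4 members. The shift was 2.93 ± 0.233 for Oog4 (adjusted p = 3e-09), the 17th highest of all genes, 1.09 ± 0.145 for Oog3 (adjusted p = 2.64e-06; 0.37 after quantile normalization, adjusted p = 0.0181), 1.04 ± 0.151 for Oog2 (adjusted p = 8.38e-06) and 0.86 ± 0.261 for Oog1 (adjusted p = 0.00893). That of Oog1 did not pass after quantile normalization (0.45), with only these groups in the fit (adjusted p = 0.0539) or without the second wild-type 2-cell library (0.53). These tests and the stage steps share their libraries and are not separate evidence.

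Over the 8 group means the members fell into different patterns. Oog2 and Oog4 ran together with a Pearson r of 0.909, while Oog3 was at −0.05 with Oog2, 0.02 with Oog4 and 0.31 with Oog1. The points share libraries and normalization, and r is given as a description. Among 7584 genes with a mean of at least 5 FPKM, those most like Oog2 were Fbxw15 (r = 0.996), E330014E10Rik (0.992), Fbxw16 (0.988), Gm13103 (0.988) and Noto (0.985). Those most like Oog4 were A430033K04Rik (0.995), Prr5l (0.991), Fbxw14 (0.988), Fbxw28 (0.987) and Elmod2 (0.984). Oog3 was most like Sycp2 (0.982), which encodes a protein of the synaptonemal complex, Fa2h (0.973), Itga9 (0.972), Eif4a2 (0.958) and Insm1 (0.956). Oog1 was most like Atp10b (0.976), Kif14 (0.964), Eps8 (0.961), C87414 (0.952), itself a PRAME-like gene, and Mtus1 (0.951).

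Beside the oogenesins, 36 rows of the table belonged to the PRAME-like list, and 33 were tested. The list held symbols that start with Prame, other RefSeq names of Oog and Prame genes, and genes entered by name. AA792892, BC061212, BC080695 and E330014E10Rik had no such RefSeq name and came in by name alone. The 33 tested genes moved both ways. In 3-week GV oocytes 8 were higher and 9 lower after deletion, with a median change of −0.00. The counts there ran over 4 to 9 higher and 5 to 6 lower when 1 library was left out, and were 3 and 8 after quantile normalization and 4 and 11 with only these groups in the fit. In 3-month GV oocytes 8 were higher and 11 lower (median −0.01; 4 and 13 after quantile normalization), in zygotes 8 were higher and 4 lower (median 0.12; 6 and 12 after median-of-ratios scaling, median −0.067; 6 and 8 after quantile normalization, median −0.078), and in 2-cell embryos 14 were higher and 16 lower (median −0.15). In 2-cell embryos Pramel4, Pramel5 and Pramel6 reached the filter on low values only through the wild-type 2-cell libraries. Without them, a count added after the values were seen, 14 were higher and 13 lower, with a median of 0.03. Without the first wild-type 2-cell library 15 of 31 tested relatives were higher and 11 lower, with a median of 0.36. The medians of all genes were 0.09, 0.20, 0.22 and 0.16. Of all genes 18.3%, 34.2%, 35.3% and 37.1% were higher in these comparisons, and 11.3%, 15.2%, 11.4% and 29.4% lower.

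The relatives most abundant over all libraries were Gm13084, Gm10436, Gm13023, Pramef12 and C87499. In GV oocytes of the 3-week comparison Gm13084 averaged 372 ± 5.41 FPKM after deletion and 444 ± 13.1 FPKM in wild type (SD, n = 3 each), a change of −0.26 ± 0.0895 that passed the threshold but did not in any of the 6 fits without 1 of these libraries (−0.27 to −0.23) nor after quantile normalization (−0.17). In 2-cell embryos Gm13084 had 145, 144 and 120.1 FPKM after deletion, against 26.0 and 32.1 FPKM in wild type, a rise of 2.196 ± 0.1001. The other 4 also rose in 2-cell embryos, Gm10436 by 0.73, Gm13023 by 1.16, Pramef12 by 1.17 and C87499 by 1.75, of which only Gm10436 lost the threshold under another scaling (0.21 after quantile normalization). In zygotes Gm13023, Pramef12 and C87499 fell by 0.77, 0.65 and 0.83, while Gm13084 and Gm10436 changed by 0.02 and 0.21 without passing the threshold. These sizes depended on the scaling. Median-of-ratios scaling gave −1.38 for Gm13023, −1.26 for Pramef12 and −1.44 for C87499. Of the 33 tested relatives, 12 were then lower in zygotes, in place of 4.

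The relatives that changed most differed between stages. In 3-week GV oocytes E330014E10Rik had 33.8, 33.0 and 31.7 FPKM after deletion, against 75.3, 77.3 and 77.0 FPKM in wild type, a change of −1.20 ± 0.141, and in 3-month oocytes its change was −2.07. BC080695, at 1.16, 0.803 and 4.42 FPKM after deletion against 0.265, 0.0866 and 0.0765 FPKM in wild-type 3-week oocytes, rose by 1.28 ± 0.319 (0.79 without the third deletion library), and by 2.08 in the 3-month comparison. In zygotes AA792892 had 111, 104 and 101 FPKM after deletion, against 19.3, 26.0 and 22.2 FPKM in wild type, a rise of 2.18 ± 0.107. Pramef17 rose there by 1.56, with 5.79, 4.44 and 3.11 FPKM after deletion and 0.718, 0.786 and 0.920 FPKM in wild type. In 2-cell embryos Gm3139 had 1.94, 2.85 and 3.14 FPKM after deletion, against 78.0 and 103 FPKM in wild type, a change of −4.65 ± 0.244. Pramel7, known from pluripotent cells of the early embryo, had 1.24, 1.21 and 1.21 FPKM after deletion, against 46.6 and 46.9 FPKM in wild type, a change of −4.43 ± 0.117.

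The relatives abundant in the oocyte were set beside the oogenesins by a split chosen after the values were seen, given as a description. Of the 14 tested relatives with at least 10 FPKM in wild-type 3-week GV oocytes, 13 were higher and 0 lower in deletion 2-cell embryos (12 and 0 after quantile normalization), with a median change of 1.26 and a range of 0.17 to 2.196. Oog1, Oog2 and Oog4, all over 10 FPKM in the oocyte, were higher as well. Oog3, at 373 FPKM in wild-type 3-week oocytes, was lower. Of the 19 tested relatives under 10 FPKM in those oocytes, 1 was higher and 16 lower, with a median change of −2.10. Without the 3 that reached the filter on low values only through the wild-type 2-cell libraries, 1 was higher and 13 lower. Among all genes 37.1% were higher and 29.4% lower, shares that are not matched for level in the oocyte. In 2-cell embryos 12 of 12 oocyte markers, 13 of 13 Fbxw, 11 of 11 Nlrp and 3 of 6 Obox genes were also higher. Whether the split is particular to PRAME-like genes was not tested.

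**Figure D4:**
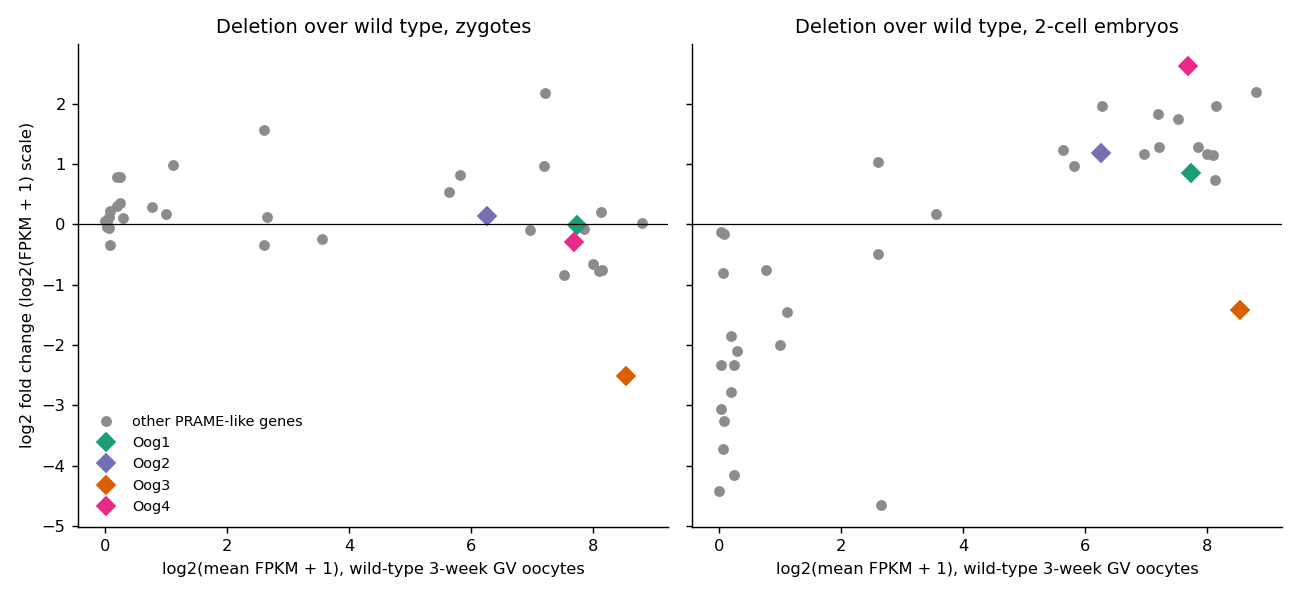
Deletion effect in 2-cell embryos and in zygotes for the PRAME-like genes, by their level in wild-type 3-week GV oocytes. The horizontal axis is log2(mean FPKM + 1), the vertical axis is the log2 fold change of deletion over wild type, grey points are the 33 tested relatives and coloured points the oogenesins; in 2-cell embryos Oog3, at −1.42, stands below every relative with at least 10 FPKM in the oocyte, whose changes ran between 0.17 and 2.196.

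Other families with many copies that oocytes transcribe were read beside the oogenesins. Among all genes tested, 18.3%, 34.2%, 35.3% and 37.1% were higher in the 3-week GV, 3-month GV, zygote and 2-cell comparisons. Those lower were 11.3%, 15.2%, 11.4% and 29.4%, and the medians were 0.09, 0.20, 0.22 and 0.16. Of 13 oocyte Fbxw genes, which encode F-box proteins with WD repeats, 0 were higher and 13 lower in 3-week GV oocytes (median −0.99), 0 and 11 in 3-month GV oocytes (median −0.88), 3 and 4 in zygotes (median 0.10; 0 and 6 after median-of-ratios scaling, median −0.50) and 13 and 0 in 2-cell embryos (median 1.99). Fbxw15, the gene most like Oog2, averaged 179 ± 23.4 FPKM in deletion and 423 ± 10.3 FPKM in wild-type 3-week GV oocytes (SD, n = 3 each). Of 11 tested Nlrp genes, several of which encode parts of the subcortical maternal complex, 0 were higher and 8 lower in each of the GV comparisons (medians −0.58 at 3 weeks and −0.91 at 3 months), 3 and 8 in zygotes (median −0.46) and 11 and 0 in 2-cell embryos (median 2.37). Of 6 tested Obox genes, oocyte homeobox genes, 0 were higher and 4 lower in 3-week GV oocytes (median −1.31), 1 and 4 in 3-month GV oocytes (median −1.60), 0 and 4 in zygotes (median −1.21) and 3 and 2 in 2-cell embryos (median 0.53; 3 and 3 after quantile normalization, median 0.039).

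Of the 6 genes around RalGDS, the reported partner of oogenesin 1, 2 were higher and 1 lower in 3-week GV oocytes, where 29.6% of all genes passed the threshold, and 2 and 0 in 3-month GV oocytes, against 49.5%. In zygotes 3 were higher and 0 lower, against 46.7% of all genes, and in 2-cell embryos 2 and 1, against 66.5%. After median-of-ratios scaling the counts were 1 and 2, 1 and 0, 1 and 1, and 0 and 1, and those higher in zygotes were 1 to 3 when 1 library was left out. Ralgds averaged 18.7 ± 1.56 FPKM in zygotes after deletion and 2.70 ± 0.560 FPKM in wild type (SD, n = 3 each), a rise of 2.42 ± 0.297. In 3-week GV oocytes it averaged 27.6 ± 19.6 FPKM after deletion, with libraries as far apart as 16.1 and 50.3 FPKM, and 63.5 ± 1.14 FPKM in wild type, a change of −1.38 ± 0.297. Rala, which encodes a Ral GTPase, rose by 0.39 in both GV comparisons, 0.31 in zygotes and 0.47 in 2-cell embryos, but not after median-of-ratios scaling (0.28, 0.15, −0.27 and 0.20), where the value in zygotes passed the threshold as lower.

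Of 12 transcription factors of the oocyte, 10 were tested. In 3-week GV oocytes 1 was higher and 1 lower, namely Gtf2a1l (0.52), a germ cell form of a general factor, and Sall4 (−1.11), a zinc finger factor. In 3-month GV oocytes 5 were higher and 3 lower, with the most change in Sohlh2 (1.85) and Sall4 (−1.76). In zygotes 6 were higher and 2 lower, led by Nobox (2.65) and Gtf2a1l (1.22), and in 2-cell embryos 7 were higher and 3 lower, led by Nobox (3.76) and Zfp42 (−2.38). After median-of-ratios scaling the counts were 0 and 2, 1 and 4, 2 and 4, and 7 and 3. When 1 library was left out, those higher were 0 to 1 in 3-week and 3 to 5 in 3-month GV oocytes. In zygotes they were 4 to 5. Gtf2a1l in 3-week GV oocytes did not pass the threshold after median-of-ratios scaling (0.41) nor without any 1 of the wild-type libraries (0.51 to 0.53). It did not pass without the first (0.52) or the third (0.48) deletion library either. Among all genes 29.6% passed it in 3-week and 49.5% in 3-month GV oocytes, 46.7% in zygotes and 66.5% in 2-cell embryos. Nobox averaged 290.5 ± 15.2 FPKM in deletion and 249 ± 4.25 FPKM in wild-type 3-week GV oocytes, 125 ± 14.7 and 19.0 ± 0.198 FPKM in deletion and wild-type zygotes (SD, n = 3 each), and 165 ± 33.7 (n = 3) and 11.1 ± 0.879 FPKM (n = 2) in deletion and wild-type 2-cell embryos.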

How the data were processed

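RNA sequencing libraries of mouse GV oocytes, zygotes and 2-cell embryos were read from 1 table of FPKM per gene that the authors deposited. Per the labels' protocols, RNA came from a column kit and NEBNext Ultra was the library kit. The submitters' processing notes list Cufflinks 2.2.1, TopHat2 2.0.12, SAMtools and CASAVA 1.4, and name mm10 as well as mm9 without their roles. The gene annotation and the use of strand are not given, so a gene and an overlapping or antisense transcript cannot be told apart. Bisulfite data were not analysed here.

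FPKM was transformed to log2(FPKM + 1), and genes with at least 1 FPKM in at least 2 libraries were kept. Fold changes are on that scale, which understates the change of low genes. Limma 3.58.1 in R 4.3.3 fitted 8 group means over 23 libraries with a mean-variance trend and 15 residual degrees of freedom. P-values were adjusted over all 13776 genes by the Benjamini-Hochberg method. The fit was tested on simulated data with known changes. Because FPKM scales each library to its own total, a changed amount of RNA per cell and a changed composition cannot be told apart. Low values fell on steps, from which a relative depth of 0.509 to 1.49 times the first wild-type 3-week library was read, with 18.1% to 28.8% of low genes (under 0.3 FPKM) on the common step within 0.02 log2. Whole reads were not recovered, so the count tests were not used.

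The members and all lists were chosen with earlier results of these data known. Relatives were named by a rule, the 5 with the highest mean FPKM and the 2 called with the largest change in each deletion comparison, and likewise the 2 transcription factors called with the largest change. Likeness was Pearson's r over 8 group means, with no p. Promoters were aligned with Biopython 1.88 and figures drawn with matplotlib 3.10.9. Alternatives were another pseudocount, other filters, other scalings, fewer groups in the fit, no trend, a replicate block and leaving out each library.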

Additional observations from a re-analysis of the deposited data

Results flagged for a closer look

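The deletion effect differed between stages, by a limma test of the difference itself, for these genes. From the 3-week GV oocyte to the zygote it differed for Oog2 by 0.69 (adjusted p = 0.000911) and for Oog3 by −0.74 (adjusted p = 0.000318) on the log2 scale. From the zygote to the 2-cell embryo it differed for Oog1 by 0.86 (adjusted p = 0.00893), for Oog2 by 1.04 (adjusted p = 8.38e-06), for Oog3 by 1.09 (adjusted p = 2.64e-06) and for Oog4 by 2.93 (adjusted p = 3e-09). All 6 differences kept their sign in every fit that left out a library. Not all kept the threshold under another scaling. From the GV oocyte to the zygote, Oog2 lost it after median-of-ratios scaling (0.21) and Oog3 after quantile normalization (−0.28). From the zygote to the 2-cell embryo, Oog1 lost it after quantile normalization (0.45) and with only these groups in the fit.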

How the results depend on the processing

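Of 732 values of the members under alternatives, 686 kept their direction and their side of the threshold, and 17 changed sign. With the sign kept, 16 lost the threshold and 13 newly passed it. Values that changed sign were counted only as such, also where they crossed the threshold, as Oog2 in zygotes did after median-of-ratios scaling. The cause was not tested. The falls of Oog3 after deletion passed the threshold in all 4 comparisons under every alternative run.

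After median-of-ratios scaling the deletion change in zygotes was −0.62 for Oog1, −0.45 for Oog2 and −0.90 for Oog4. The step from GV oocyte to zygote was 0.72 for Oog1 and −0.21 for Oog4 after deletion, and 0.72 for Oog1 and 0.018 for Oog4 in wild type. The deletion step to the 2-cell embryo was −0.024 for Oog2. The zygote minus GV effect was 0.21 for Oog2 and −0.22 for Oog4, and the effect between GV models was −0.12 for Oog3. After quantile normalization the deletion change in zygotes was −0.18 for Oog2 and −0.41 for Oog4, the deletion step to the zygote 0.40 for Oog1, the wild-type step to the 2-cell embryo −0.32 for Oog1, the zygote minus GV effect −0.28 for Oog3, the 2-cell minus zygote effect 0.45 for Oog1, and the effect between GV models −0.00092 for Oog3. The split of calls between higher and lower moved as well: higher calls were 76.1% of those for the zygote minus GV effect, and 39.5% and 50% under these scalings, 39.8% for the 2-cell minus zygote effect, and 50.5% and 57.1%, and 65.5% for the effect between GV models, and 37.2% and 31.4%.

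With only the groups of a comparison in the fit, estimates stay as they are and the spread is estimated from fewer samples. Oog1 then lost the threshold in 2-cell embryos (0.85), as did its 2-cell minus zygote effect (0.86) and the deletion step of Oog3 to the 2-cell embryo (−0.36). The age change of Oog2 (0.24) and Oog3 (0.24), the deletion step of Oog1 to the zygote (0.31), its zygote minus GV effect (0.50) and the effects between GV models of Oog1 (−0.45) and Oog2 (−0.23) newly passed. Counts of genes past the threshold were then 2482 for age (544 with all groups), 4052 for the deletion step to the 2-cell embryo (6887) and 2448 between GV models (673, and 363 with a pseudocount of 0.1). Without the filter, Oog1 in 3-week GV oocytes (−0.51) had an adjusted p of 0.0822.

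Leaving out each library gave ranges of −0.56 to −0.45 for Oog1 in 3-week GV oocytes, −0.11 to 0.081 for Oog1 and −0.44 to −0.17 for Oog4 in zygotes (Oog4 passed without the second deletion library), −1.06 to −0.41 for the wild-type step of Oog1 to the 2-cell embryo and 0.53 to 1.18 for its 2-cell minus zygote effect (both lost without the second wild-type 2-cell library), −0.0073 to 0.36 for Oog1 and −0.41 to 0.0024 for Oog4 in the deletion step to the 2-cell embryo, −0.042 to 0.11 for Oog3 between GV models, 264 to 317 genes for age and 360 to 766 between GV models. Where 1 wild-type 2-cell library was left, it was assumed to vary like the other groups.

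Same-numbered libraries of different groups did not deviate together (r of −0.0689 to 0.0789 over 25 pairs). A replicate block changed no call of a member; the change of Oog4 in 2-cell embryos was then 2.69. The depth of the libraries is unknown, which limits what a value near 0 can show.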
